A study of Mus musculus with 64 samples.

Results

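The oxidative phosphorylation subunits are the nuclear-encoded proteins that make up the 4 respiratory chain complexes and the ATP synthase. Their genes were chosen by symbol: Nduf followed by a, b, c, s or v and a digit for complex I, Sdha to Sdhd for complex II, Cyc1 and Uqcr symbols for complex III, Cox4 to Cox8 subunits for complex IV, and Atp5 symbols for complex V. Assembly factors were not taken. The array carried 80 such genes on 99 probes, of 16593 genes on 25697 probes: 34 genes of complex I, 3 of complex II, 9 of complex III, 18 of complex IV and 16 of complex V.

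RNA from 4 organs (brain, liver, spleen and thymus) was measured on 64 Illumina arrays, 1 per organ of each of 16 mice, all males of 21 weeks. The mice fell into 4 groups of 4. They were homozygous Hmgn2-/- knockouts (Hmgn2 KO) with the strain label C57BL/6, wild types with that label, homozygous Hmgn1-/-n2-/- double knockouts (DKO) with the strain label C57BL/6J, and wild types with that label. The HMGN proteins are chromatin proteins that attach to nucleosomes and loosen their packing. The sources used here do not say how the alleles were made or whether the wild types were littermates.

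Complexes I to IV pass electrons from NADH and succinate to oxygen. Complexes I, III and IV pump protons across the inner mitochondrial membrane as they do so, and complex V uses the proton gradient to make ATP. Each large complex has a core that carries out catalysis and a shell of small accessory subunits that stabilise it, and some complex IV and ATP synthase subunits exist as isoforms of different tissues. The nuclear genes of the subunits are known as targets of NRF1, of the ETS factor GABP and of YY1, which act on their promoters together with coactivators of the PGC-1 family.

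Promoters of 64 of the 80 genes were found in the RefSeq table of build GRCm38.p6, each running from 250 bases before to 50 bases after the gene's start. They were searched on both strands for GCGCA, any base and GCGC in a row (NRF1 type), CCGGAAG (ETS type) and ATGGCGG (YY1 type), and 0 matches of different motifs overlapped. The NRF1 type was in 20.3% of the 64 subunit promoters and in 4.78% of the promoters of all 27025 genes in the table, with 1 start taken per gene. The ETS type was in 23.4% and 9.12%, the YY1 type in 14.1% and 4.19%, and at least 1 of the motifs in 48.4% and 16%. By complex, at least 1 motif was in 15 of 30 promoters of complex I, 2 of 2 of complex II, 3 of 5 of complex III, 3 of 13 of complex IV and 8 of 14 of complex V. A match describes the letters of a window and is not a binding site.

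Of the 5 promoters shown, the first 3 belong to subunits that fell in the Hmgn2 KO thymus and the last 2 to subunits that did not pass the test there, and matches to the motifs are in capitals. Ndufa1 lies on the minus strand at chrX:37191189-37191488, Cox6a1 on the minus strand at chr5:115348909-115349208 and Atp5o on the minus strand at chr16:91931581-91931880. Uqcrc1 lies on the plus strand at chr9:108936398-108936697 and Atp5b on the plus strand at chr10:128083057-128083356. Each is written 5′ to 3′ along its gene.
Ndufa1: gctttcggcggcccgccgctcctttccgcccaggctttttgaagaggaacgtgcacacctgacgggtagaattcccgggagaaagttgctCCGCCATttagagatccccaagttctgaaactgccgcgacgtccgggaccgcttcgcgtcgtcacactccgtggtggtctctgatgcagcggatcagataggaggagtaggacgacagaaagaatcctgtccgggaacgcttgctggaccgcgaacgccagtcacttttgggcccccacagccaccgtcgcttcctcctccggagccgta
Cox6a1: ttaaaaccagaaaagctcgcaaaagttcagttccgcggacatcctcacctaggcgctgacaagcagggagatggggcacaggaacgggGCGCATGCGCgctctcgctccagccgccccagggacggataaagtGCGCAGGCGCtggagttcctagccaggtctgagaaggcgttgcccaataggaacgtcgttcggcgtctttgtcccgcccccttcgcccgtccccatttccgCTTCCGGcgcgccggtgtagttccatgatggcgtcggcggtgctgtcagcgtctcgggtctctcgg
Atp5o: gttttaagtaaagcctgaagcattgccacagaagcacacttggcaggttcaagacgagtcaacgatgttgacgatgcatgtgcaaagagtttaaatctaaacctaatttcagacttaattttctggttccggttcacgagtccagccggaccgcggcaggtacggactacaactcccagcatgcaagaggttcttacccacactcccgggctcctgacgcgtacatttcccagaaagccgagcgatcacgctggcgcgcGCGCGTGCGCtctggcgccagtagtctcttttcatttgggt
Uqcrc1: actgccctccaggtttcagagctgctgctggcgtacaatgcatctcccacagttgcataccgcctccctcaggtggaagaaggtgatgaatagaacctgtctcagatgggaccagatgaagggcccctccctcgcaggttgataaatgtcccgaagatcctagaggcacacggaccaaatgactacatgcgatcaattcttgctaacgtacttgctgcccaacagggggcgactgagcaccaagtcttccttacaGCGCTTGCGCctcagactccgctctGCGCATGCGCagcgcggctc
Atp5b: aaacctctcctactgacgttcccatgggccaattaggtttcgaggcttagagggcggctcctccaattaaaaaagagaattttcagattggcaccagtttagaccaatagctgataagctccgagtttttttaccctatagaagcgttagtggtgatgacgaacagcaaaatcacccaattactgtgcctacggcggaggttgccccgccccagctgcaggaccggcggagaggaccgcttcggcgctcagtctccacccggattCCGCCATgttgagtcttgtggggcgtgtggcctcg
The Cox6a1 promoter held 2 NRF1 type matches and 1 ETS type match, Atp5o 1 NRF1 type match that begins 10 bases into the transcript, and Ndufa1 1 YY1 type match. Uqcrc1 held 2 NRF1 type matches and Atp5b 1 YY1 type match, so subunits on both sides of the test carried such letters. At least 1 motif was in 21 of 38 promoters of subunits that fell in the Hmgn2 KO thymus and in 9 of 23 promoters of subunits tested there that did not pass.

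Values are log2 signals after background correction and quantile normalization within an organ, and levels of different probes are not compared. An array detected 9550 to 13411 probes. Hmgn2 lay between 4.26 and 5.88 on all Hmgn2 KO arrays, against 8.76 to 12.91 on those of their wild types. In DKO mice it lay between 4.39 and 5.11 in the brain and liver and between 4.64 and 7.19 in the thymus. In the spleen, DKO replicate 1 had 12.13 and C57BL/6J wild type replicate 4 had 6.33, so these 2 libraries go against their labels. The Hmgn1 probe read 10.33 to 12.54 on the DKO arrays, and the sources used here do not place it relative to the deleted part. A subunit was tested where its probe was detected on at least 4 of the 16 arrays of an organ: 73 genes for brain, 71 for liver, 72 for spleen and 73 for thymus. Atp5k, Cox4i2, Cox7b2, Cox8c, Ndufs1, Uqcrfs1 and Uqcrq were tested in no organ.

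The mean level of all subunits tested gives the first view of the 64 arrays. In the thymus it lay between 9.90 and 9.95 on the 4 Hmgn2 KO arrays, against 10.14 to 10.47 on the 4 C57BL/6 wild type arrays, without overlap. DKO thymus lay between 10.08 and 10.24, against 10.19 to 10.34 in C57BL/6J wild types, and these ranges overlapped. The liver groups all lay within 10.51 and 10.66. In the brain Hmgn2 KO replicate 1 had 9.47 and C57BL/6 wild type replicate 2 had 9.55, while the other 14 arrays lay at 10.03 or above. In the spleen C57BL/6J wild type replicate 3 had 8.68, and the other 3 of its group had 9.89, 9.78 and 9.63.

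**Figure D1:**
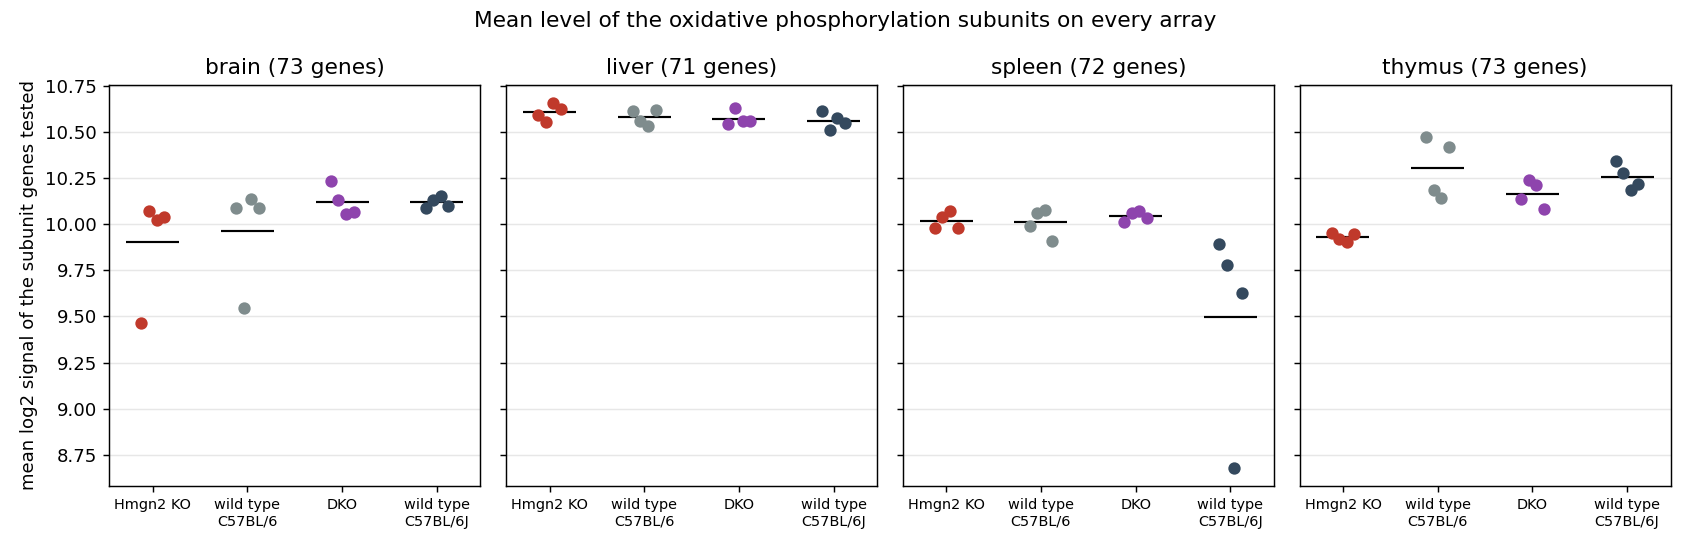
Mean log2 signal of the subunit genes tested (y axis) on every array, by group, in 4 organs; points are arrays and lines are means of 4 arrays. The Hmgn2 KO thymus arrays (9.90 to 9.95) lie below their wild types (10.14 to 10.47), and single arrays lie low in the brain (9.47 and 9.55) and the spleen (8.68).

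In the thymus of Hmgn2 KO mice, 44 of 73 subunits fell and 0 rose against C57BL/6 wild types (limma, adjusted p under 0.05). Over all 9041 genes tested in this comparison 8.32% fell and 7.22% rose. The median change of the subunits was -0.40 on the log2 scale and that of all genes 0.02. On 41 subunits every Hmgn2 KO array lay below every wild type array, as on 8.28% of all genes. By complex, 24 of 33 subunits fell in complex I, 1 of 3 in complex II, 3 of 7 in complex III, 8 of 15 in complex IV and 8 of 15 in complex V. In a whole organ, fewer cells of a type and less RNA per cell cannot be told apart.

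In complex I, the NADH dehydrogenase that begins the chain, accessory subunits had the smallest p-values. Ndufa2 had 10.25, 10.66, 10.27 and 10.35 in Hmgn2 KO thymus, against 11.39, 11.35, 11.19 and 11.29 in wild types, a change of -0.92 ± 0.11 (SE, n = 4 each; limma adjusted p = 0.000319). Every Hmgn2 KO array lay below every wild type array. Ndufa3 had 9.63, 10.14, 9.83 and 9.87 in Hmgn2 KO thymus, against 10.87, 10.64, 10.59 and 10.80 in wild types (-0.85 ± 0.11, limma adjusted p = 0.000355). Its groups were also fully separate. Ndufa7 averaged 9.76 ± 0.22 in Hmgn2 KO thymus and 10.50 ± 0.12 in wild types (SD, n = 4 each), and changed by -0.74 ± 0.10. Ndufs5-ps, a pseudogene copy of Ndufs5 whose probe may also read that gene, averaged 8.83 ± 0.13 in Hmgn2 KO thymus and 9.53 ± 0.18 in wild types (-0.71 ± 0.10). Ndufs4, read by 4 probes, fell on all of them, by 0.55 to 0.59.

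Core subunits of complex I fell in part. Ndufv2 and Ndufs8, which hold iron-sulfur clusters, and Ndufs3 fell, with changes of -0.40 ± 0.11, -0.32 ± 0.09 and -0.34 ± 0.10. Ndufv1, which binds NADH and flavin, had 11.61, 11.19, 11.53 and 11.35 in Hmgn2 KO thymus, against 11.48, 11.04, 11.07 and 11.40 in wild types (0.18 ± 0.12, limma adjusted p = 0.335), and the arrays overlapped. Ndufs7, the subunit next to the quinone site, gave -0.15 ± 0.11 and did not pass.

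In complex II, succinate dehydrogenase, the membrane anchor Sdhc fell and the iron-sulfur subunit Sdhb and the anchor Sdhd did not pass. Sdhc had 9.95, 9.60, 9.46 and 9.71 in Hmgn2 KO thymus, against 10.10, 9.98, 9.96 and 10.06 in wild types (-0.34 ± 0.10, limma adjusted p = 0.0272). The groups were separate, with Hmgn2 KO replicate 1 next to the wild types. The call was lost without C57BL/6 wild type replicate 1 or 4 or Hmgn2 KO replicate 2 or 3 (limma adjusted p = 0.0688, 0.0691, 0.0583 and 0.095), with only the 8 arrays compared (0.134) and with the replicate block (0.0542). Sdhb gave -0.18 ± 0.11 and Sdhd -0.27 ± 0.20.

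Complex III passes electrons from ubiquinol to cytochrome c, and its calls were small subunits. Uqcrb, a small subunit near the quinone site, had 9.70, 9.78, 9.54 and 9.56 in Hmgn2 KO thymus, against 10.69, 10.02, 10.07 and 10.37 in wild types (-0.64 ± 0.13, limma adjusted p = 0.0035). All 4 Hmgn2 KO arrays lay lower. Uqcr11 and Uqcrh, the hinge protein at cytochrome c1, fell with changes of -0.57 ± 0.12 and -0.50 ± 0.10. The large core proteins Uqcrc1 and Uqcrc2 gave 0.11 ± 0.12 and 0.12 ± 0.10, and Cyc1, cytochrome c1 itself, -0.07 ± 0.12. None of these last 3 passed the test (limma adjusted p between 0.458 and 0.746).

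In complex IV, cytochrome c oxidase, the subunits that fell were Cox5a, Cox5b, Cox6a1, Cox6b1, Cox6c, Cox7a2, Cox7c and Cox8a. Cox6a1, the isoform of Cox6a found in most tissues, had 10.62, 10.77, 10.94 and 10.88 in Hmgn2 KO thymus, against 11.76, 11.51, 11.40 and 11.64 in wild types (-0.78 ± 0.10, limma adjusted p = 0.000355). The groups were separate, and its second probe gave -0.77 ± 0.12. Cox7c averaged 10.97 ± 0.23 in Hmgn2 KO thymus and 11.73 ± 0.16 in wild types (SD, n = 4 each), and changed by -0.76 ± 0.11. Cox6b1 and Cox5b changed by -0.52 ± 0.11 and -0.38 ± 0.08. Cox4i1, an early-assembling subunit, gave -0.25 ± 0.10 and did not pass (limma adjusted p = 0.0961).

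In complex V, the ATP synthase, the peripheral stalk, the membrane ring and the small membrane subunits held most of the calls. Atp5o, which joins the stalk to the catalytic head, had 7.59, 7.75, 7.51 and 7.46 in Hmgn2 KO thymus, against 8.39, 8.31, 8.24 and 8.46 in wild types (-0.77 ± 0.10, limma adjusted p = 0.000355). Every Hmgn2 KO array lay below every wild type array. Atp5l, a small membrane subunit, averaged 9.88 ± 0.26 in Hmgn2 KO thymus and 10.74 ± 0.14 in wild types (-0.85 ± 0.12). Atp5g2, a gene of the proton-carrying ring, and Atp5j of the stalk changed by -0.63 ± 0.11 and -0.52 ± 0.09. Atp5pb (-0.21) and Atp5h (-0.32), also of the stalk, did not pass (limma adjusted p = 0.266 and 0.25). Atp5b, the catalytic beta subunit, had 13.96, 13.61, 13.98 and 13.85 in Hmgn2 KO thymus, against 13.77, 13.52, 13.58 and 13.55 in wild types (0.25 ± 0.09, limma adjusted p = 0.0763). It did not pass, and the alpha subunit Atp5a1 gave 0.25 ± 0.14. Of the other head subunits, Atp5e fell (-0.63 ± 0.20), and Atp5c1 (-0.25 ± 0.11) and Atp5d (-0.27 ± 0.09) did not pass.

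Counted over all complexes, 5 of 16 core or catalytic subunits tested fell, with a median change of -0.21, and 39 of 57 other subunits fell, with a median of -0.49. The difference between these roles was not tested, and all complex IV subunits counted as other. Of the other subunits 54 had a negative change and 3 a positive one: Ndufa10 (0.25), Ndufb10 (0.15) and Cox6a2 (0.79), which did not pass. Sdhb, Atp5a1, Atp5b and Ndufv1 did not pass, but a p above the threshold does not show that they were unaltered. Probes of the same subunit gave the same sign in this comparison, and in other comparisons probes of some subunits differed in sign. The third probe of Ndufv3 (-0.07 ± 0.13) did not pass while its other probes did, and the second probe of Uqcr10 passed (-0.32 ± 0.09) while the brighter one used here did not (-0.25 ± 0.08). With only the 8 arrays compared in the fit, 22 of 73 subunits passed, all lower. The median change was then -0.41, and of the subunits named above Uqcrh, Uqcr11, Cox6b1, Cox5b and Sdhc were among those that no longer passed.

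**Figure D2:**
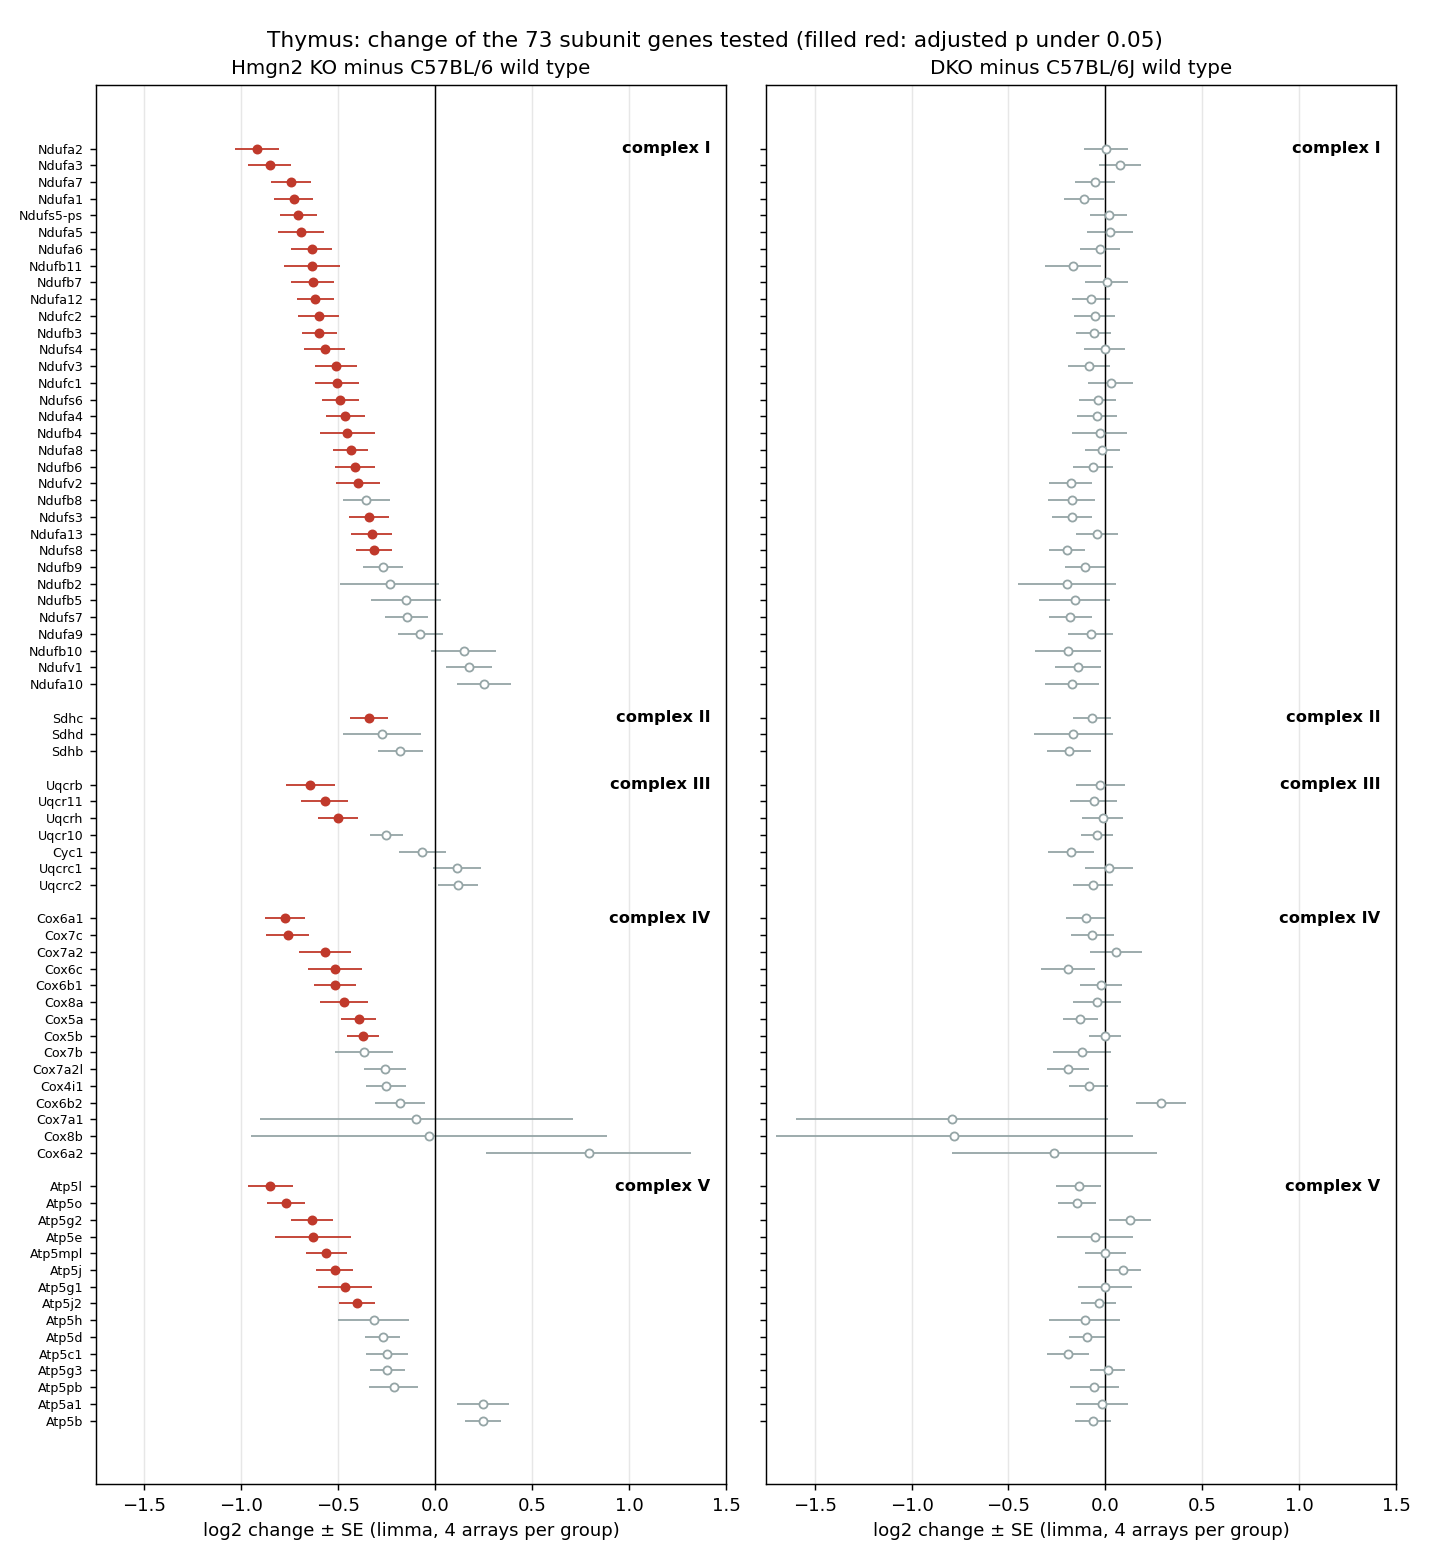
Log2 change with its standard error (x axis) of each of the 73 subunit genes tested in the thymus, by complex, for the Hmgn2 KO against C57BL/6 wild types (left) and the DKO against C57BL/6J wild types (right). Filled red points passed the test: 44 in the Hmgn2 KO, all lower, and 0 in the DKO.

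The thymus of Hmgn2 KO mice differed from that of wild types in other measures as well. The 95th percentile of the raw signal was 806.8 to 933.4 on Hmgn2 KO arrays, against 1072 to 1257 on wild type arrays, without overlap. Among 11 thymocyte markers tested, 2 rose and 0 fell, and their mean level was 9.97 to 10.14 in Hmgn2 KO thymus, against 9.89 to 10.01 in wild types. The 4 erythroid markers averaged 6.71 to 7.77 in Hmgn2 KO thymus, against 7.77 to 8.91 in wild types, with 0 past the test. Of 10 muscle and heart markers 2 fell and 0 rose, their median change was 1.09, and they averaged 5.40 to 7.76 in Hmgn2 KO thymus, against 5.50 to 6.40 in wild types. Of other marker lists, 1 of 4 B cell markers and 1 of 1 choroid plexus markers fell, and 3 brown adipose markers averaged 4.47 to 8.68 in Hmgn2 KO thymus, against 6.03 to 9.11 in wild types. Over all genes 7.22% rose and 8.32% fell. The 7 hepatocyte markers averaged 10.63 on C57BL/6 wild type replicate 1, and 5.88, 5.75 and 6.43 on replicates 2 to 4. They averaged 5.87 to 8.01 in Hmgn2 KO thymus, with 0 past the test. Without that wild type array the median change of the subunits was -0.33. The 2 exocrine pancreas markers averaged 4.78 to 5.20 in Hmgn2 KO thymus, against 5.24 to 5.50 in wild types, with 0 past the test. The part of these measures in the change of the subunits was not tested. Other genes at or above the median level of the subunits had a median change of 0.03, with 100 that rose and 97 that fell of 632.

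Genes around the chain were called in both directions in the Hmgn2 KO thymus. Over all 9041 genes tested 8.32% fell and 7.22% rose, and the rises in the lists below lay near or below that share. Of 40 assembly factors tested, 13 fell and 2 rose. Slirp, which binds mitochondrial messenger RNA, changed by -1.18 ± 0.10, and Cox17, the copper chaperone of complex IV, by -0.72 ± 0.11. Those that rose were Lrpprc, the partner of Slirp (0.34 ± 0.10), and Cox15, which makes heme a (0.37 ± 0.08). Of 27 mitochondrial carrier and import genes, 8 fell and 2 rose. The small import proteins Tomm6 and Timm8b changed by -0.94 ± 0.13 and -0.81 ± 0.11, and the chaperone Hspa9 and the receptor Tomm70a by 0.42 ± 0.10 and 0.59 ± 0.16. Of 16 regulators of mitochondrial biogenesis, Esrra (-0.40 ± 0.10) and Tfam (-0.37 ± 0.10) fell and 0 rose, a count not far from the share of all genes that fell. Of 15 citric acid cycle genes and 13 electron carrier genes, 0 passed (limma), with medians of 0.16 and 0.03 and with 2 and 0 at an unadjusted p under 0.05. Of the mitochondrially encoded subunits, 0 were tested.

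In the DKO thymus, 0 of 73 subunits passed the test against C57BL/6J wild types (limma). An unadjusted p under 0.05 was reached by 2 of them, and 0.232% of all genes passed. Their median change was -0.06 and that of all genes 0.01. The smallest p-values belonged to Cox6b2 (0.29 ± 0.13, limma adjusted p = 0.516), Ndufs8 (-0.20 ± 0.09) and Atp5c1 (-0.19 ± 0.11). Every DKO array lay below every wild type array on 6 subunits, against 4.68% of all genes. Ndufa2 had 11.28, 11.24, 11.10 and 11.11 in DKO thymus, against 11.23, 11.28, 11.33 and 10.88 in wild types. The arrays of the 2 groups overlapped.

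The DKO change minus the Hmgn2 KO change was positive past the test for 15 of 73 subunits and negative for 0 (limma), while 1.27% of all genes were positive and 0.465% negative. The median difference was 0.37, and -0.02 over all genes. In complex I 9 passed, led by Ndufa3 (0.93 ± 0.16, limma adjusted p = 0.00993), Ndufa2 (0.92 ± 0.16) and Ndufs5-ps (0.72 ± 0.14). In complex IV Cox6a1 (0.67 ± 0.15) and Cox7c (0.69 ± 0.16) passed, and in complex V Atp5g2 (0.76 ± 0.15), Atp5j (0.61 ± 0.13), Atp5o (0.62 ± 0.14) and Atp5l (0.71 ± 0.16). All 15 were among the 57 other subunits, whose median difference was 0.45, and the 16 core or catalytic subunits had a median of 0.02. The count rested on the arrays used. It was 3 to 8 without any 1 of 12 arrays (Hmgn2 KO replicate 3, C57BL/6 wild type replicates 1, 2 and 4, and each DKO and C57BL/6J wild type array), and 24 without Hmgn2 KO replicate 4. The median stayed between 0.33 and 0.41 over all arrays left out in turn. The mutants also differ in strain label, so strain label and the loss of Hmgn1 cannot be told apart. Between the wild types of the thymus, C57BL/6J against C57BL/6, 0 of 73 subunits passed (limma), against 0.254% of all genes. An unadjusted p under 0.05 was reached by 2 subunits, and the median difference was -0.04.

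**Figure D3:**
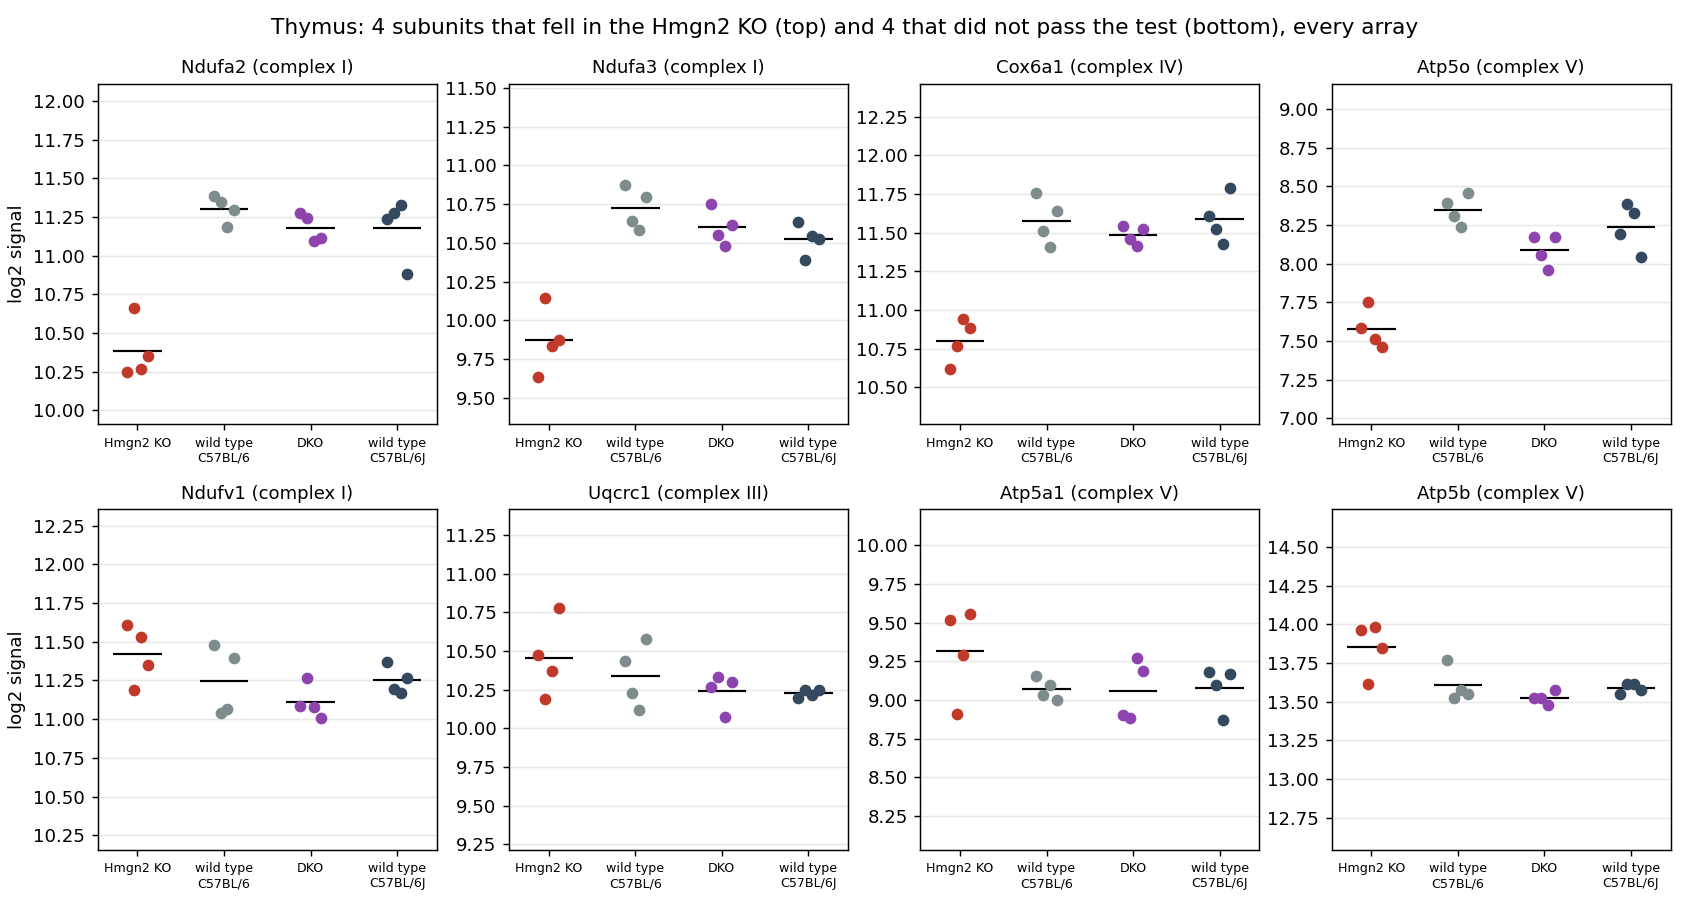
Log2 signal (y axis) of 8 subunits on each of the 16 thymus arrays, by group; points are arrays and lines are means of 4 arrays. Ndufa2, Ndufa3, Cox6a1 and Atp5o (top) lie lower on all 4 Hmgn2 KO arrays than on all C57BL/6 wild type arrays, and Ndufv1, Uqcrc1, Atp5a1 and Atp5b (bottom) overlap between these groups.

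In the brain, 0 of 73 subunits passed in the Hmgn2 KO (limma; 0 at an unadjusted p under 0.05) and 0 in the DKO (1 at an unadjusted p under 0.05). Of all genes 0.0218% and 0.142% passed. The median change was -0.08 in the Hmgn2 KO and -0.0044 in the DKO. The smallest p-values in the Hmgn2 KO were those of Ndufb9 (0.27 ± 0.14), Ndufb2 (-0.19 ± 0.11) and Atp5c1 (0.16 ± 0.10), and in the DKO those of Atp5c1 (-0.22 ± 0.10), Atp5pb (-0.28 ± 0.16) and Ndufb11 (0.29 ± 0.19). The Hmgn2 KO median moved with each of the 2 low arrays: it was 0.09 without Hmgn2 KO replicate 1, -0.22 without wild type replicate 2, and -0.08, as with all arrays, without both. Between the wild types, C57BL/6J against C57BL/6, 0 of 73 passed (limma), against 1.54% of all genes. An unadjusted p under 0.05 was reached by 12 subunits, and the share of all genes on that measure is not given here. The count past the adjusted test was 4 without Hmgn2 KO replicate 1 and 1 without C57BL/6 wild type replicate 2.

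In the liver, 0 of 71 subunits passed in either mutant (limma), against 0.0131% of all genes in the Hmgn2 KO and 0.314% in the DKO. An unadjusted p under 0.05 was reached by 0 subunits in the Hmgn2 KO and 9 in the DKO. The share of all genes on that measure is not given here, so these counts do not set the subunits apart. The median changes were 0.02 and -0.0038. The smallest p-values were those of Atp5d (0.25 ± 0.13), Sdhd (-0.22 ± 0.12) and Atp5e (0.27 ± 0.15) in the Hmgn2 KO, and of Ndufb3 (0.27 ± 0.09), Cox7a2 (0.42 ± 0.15) and Atp5h (-0.27 ± 0.12) in the DKO.

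The liver wild types differed from each other at 3 subunits, all lower in C57BL/6J, while 0.994% of all genes were lower past the test. Sdhd had 7.97, 7.64, 7.82 and 7.82 in C57BL/6J livers, against 8.50, 8.49, 8.60 and 8.46 in C57BL/6 livers (-0.70 ± 0.12, limma adjusted p = 0.00954). Uqcrb had 10.31, 9.94, 10.14 and 10.04 in C57BL/6J livers, against 10.80, 10.91, 10.90 and 10.91 in C57BL/6 livers (-0.78 ± 0.14). Atp5a1 had 9.02, 8.81, 8.96 and 8.93 in C57BL/6J livers, against 9.61, 9.52, 9.48 and 9.58 in C57BL/6 livers (-0.62 ± 0.11). The groups were separate at all 3 genes. The call of Uqcrb was lost without C57BL/6 wild type replicate 2 (limma adjusted p = 0.0595). Strain label and the set the mice belonged to cannot be told apart.

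In the spleen of Hmgn2 KO mice, 0 of 72 subunits passed (limma; 1 at an unadjusted p under 0.05), and the median change was -0.01. Of all genes 0% passed, and the smallest p-values among the subunits were those of Cox6a2 (0.60 ± 0.27), Ndufb5 (0.29 ± 0.17) and Ndufb11 (-0.33 ± 0.20). The ATP synthase beta subunit Atp5b had 12.83, 13.08, 10.78 and 13.09 in Hmgn2 KO spleens, against 12.87, 13.02, 13.06 and 12.73 in wild types. Replicate 3 alone lay low. On this array the 11 exocrine pancreas markers averaged 14.08, against 4.62 to 6.26 on the other 3 Hmgn2 KO arrays and 4.61 to 11.77 on those of wild types, and their part in the low value was not tested. Atp5b was picked here after its values were seen.

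In the spleen of DKO mice, 0 of 72 subunits passed against C57BL/6J wild types (limma), but 49 had an unadjusted p under 0.05 and 68 had a positive change. The shares of all genes on these last measures are not given here. Of all genes 0% passed. The median change was 0.62 and that of all genes -0.02. Every DKO array lay above every wild type array on 38 subunits, against 4.82% of all genes. Ndufv3 had 10.54, 10.57, 10.46 and 10.24 in DKO spleens, against 10.12, 9.69, 9.15 and 9.82 in wild types (0.76 ± 0.15, limma adjusted p = 0.346). Ndufs6 had 11.31, 11.30, 11.39 and 11.32 in DKO spleens, against 10.94, 10.62, 9.57 and 10.70 in wild types (0.87 ± 0.22, limma adjusted p = 0.346). The DKO arrays lay close together and wild type replicate 3 lay lowest. Atp5e had 7.64, 7.37, 7.49 and 7.38 in DKO spleens, against 6.99, 7.14, 5.64 and 6.52 in wild types (0.90 ± 0.23). The median was 0.29 without wild type replicate 3, 0.68 without the 2 libraries that go against their labels, and 0.25 without all 3. The same wild types lay below those of C57BL/6, with a median of -0.58 for C57BL/6J against C57BL/6, and -0.25 without replicate 3. There 0 of 72 subunits passed (limma), against 0.0325% of all genes. An unadjusted p under 0.05 was reached by 45 subunits, and the share of all genes on that measure is not given here. The 11 exocrine pancreas markers averaged 4.77 to 9.24 in DKO spleens, against 4.58 to 13.86 in wild types, and the 13 markers of neutrophils and macrophages 9.68 to 10.26, against 8.91 to 10.01. Their part in the difference was not tested.

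Single low arrays of the brain and spleen were set beside the Hmgn2 KO thymus, subunit by subunit. On spleen C57BL/6J wild type replicate 3, 67 of 72 subunits lay below the other 3 arrays of its group, as did 36.8% of all genes. Their median difference was -0.72 for the 16 core or catalytic subunits and -1.36 for the 56 others. Across 72 subunits these differences correlated with the thymus change in the Hmgn2 KO at Pearson's r = 0.67 (Spearman's rho = 0.72), and across 8480 genes at r = 0.63. On brain Hmgn2 KO replicate 1, 65 of 73 subunits lay below the other 3 arrays, as did 39.4% of all genes, with r = 0.50 (rho = 0.62) across 73 subunits and r = 0.58 across 7717 genes. Brain C57BL/6 wild type replicate 2 also had 65 of 73 subunits below the other 3, with 35.3% of all genes and with r = 0.55 (rho = 0.59) and 0.58. These correlations are across genes, which are not independent replicates. The points share the array platform and the probes, and the brain arrays come from mice that also gave thymus arrays. The 3 arrays were chosen after their values were seen.

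**Figure D4:**
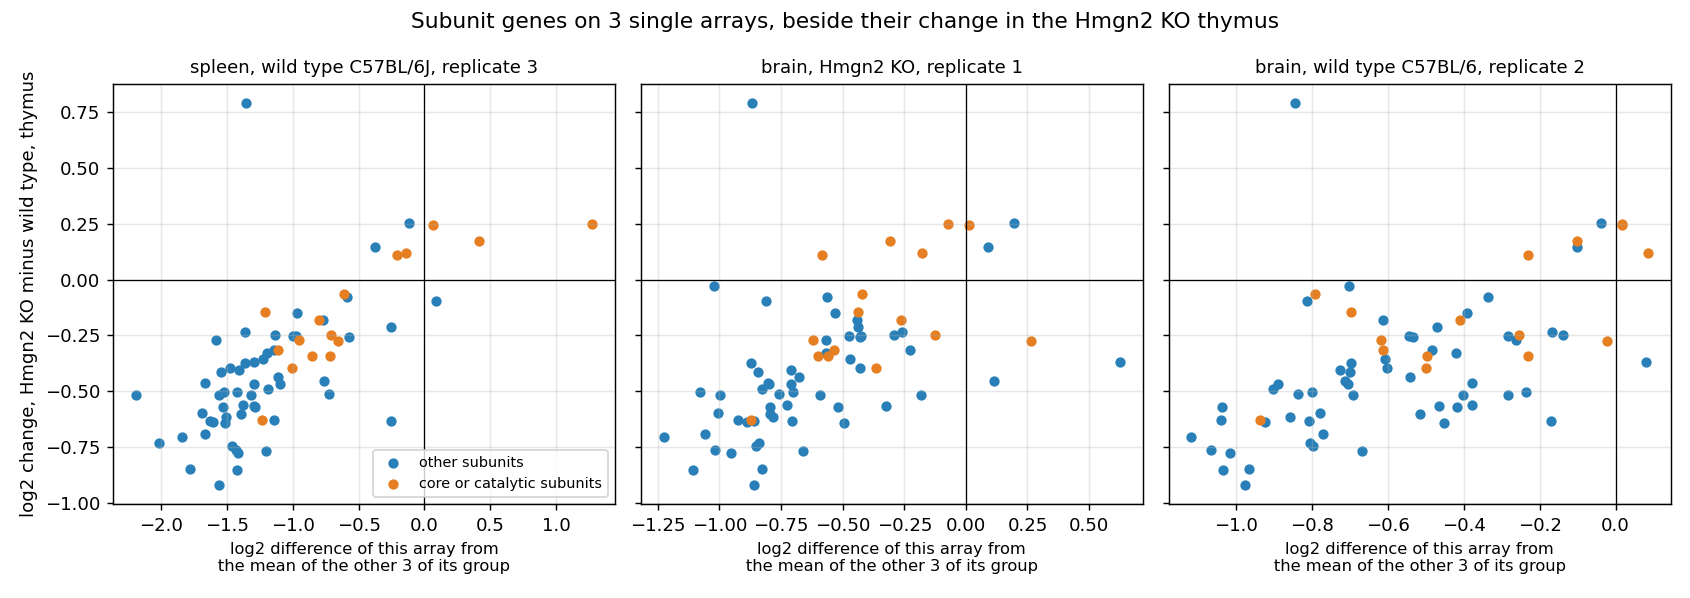
Each point is a subunit gene: its log2 difference on 1 array from the mean of the other 3 of the group (x axis) against its log2 change in the Hmgn2 KO thymus (y axis), for 3 arrays, with core or catalytic subunits in orange. Subunits lower on the single arrays tended to be lower in the Hmgn2 KO thymus (r = 0.67, 0.50 and 0.55).

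The change in the thymus was also set against the mean change of the other 3 organs, in a fit of all 64 arrays. The thymus was chosen for this contrast with earlier results of these same data known, so its calls are not independent evidence. In the Hmgn2 KO 3 of 73 subunits differed, all lower in the thymus: Ndufa2 (-1.04 ± 0.24, limma adjusted p = 0.0239), Ndufs4 (-0.72 ± 0.19) and Atp5o (-0.80 ± 0.22). Of all genes 0.686% were lower. The median difference was -0.41 and the count depended on the libraries. It was 41 of 73 without the 5 brain and spleen libraries described above, with a median of -0.40, and over all genes 519 were then lower and 342 higher, against 78 and 46 with all libraries. Left out singly, thymus Hmgn2 KO replicates 1, 2 and 3 gave 1, 8 and 0, and C57BL/6 wild type replicates 1, 2 and 4 gave 1, 0 and 1. For the DKO change 0 of 73 passed (limma), with 0.0352% of all genes higher and 0.106% lower. An unadjusted p under 0.05 was reached by 4 of 73 subunits and by 633 of 11366 genes, a like share.

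The organs were compared in the 32 wild type arrays, normalized together. Of 73 subunits, 71 differed between organs by limma's F test, as did 98% of all genes. The spleen had the lowest mean for 63 subunits. The highest mean was in the liver for 32, the brain for 30, the thymus for 11 and the spleen for 0. In brain minus spleen 62 subunits were higher past the test, against 38% of all genes, with a median difference of 0.88. In liver minus spleen 64 were higher, against 31.5% of all genes, with a median of 1.00. In spleen minus thymus 58 were lower, against 32.3% of all genes, with a median of -0.72. Without spleen C57BL/6J wild type replicates 3 and 4 and brain C57BL/6 wild type replicate 2, these medians were 0.77, 0.82 and -0.50. In C57BL/6 wild types alone they were 0.52, 0.78 and -0.44, with 42 higher, 50 higher and 41 lower. With arrays scaled to equal medians liver minus spleen had 70 higher and a median of 1.80. The order of the liver against the brain and the thymus turned on the scaling, and the counts of the highest organ above are those of quantile normalization. In brain minus liver 17 subunits were higher and 23 lower (40.3% and 38% of all genes), with a median of 0.01, but with arrays scaled to equal medians 3 were higher and 61 lower, with a median of -0.85. In liver minus thymus 26 were higher and 11 lower (31.5% and 43.7% of all genes), with a median of 0.16, and under equal medians 67 were higher and 6 lower, with a median of 1.18.

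By complex, the order of organs was as follows. All 3 subunits of complex II, which also serves the citric acid cycle, were highest in the liver. Sdhd averaged 8.68 ± 0.32 in the liver and 6.59 ± 0.24 in the brain (SD, n = 8 each), and Sdhc 10.88 ± 0.07 in the liver and 9.14 ± 0.35 in the spleen. In complex I the widest spread belonged to Ndufb9 (9.40 ± 0.24 in the liver, 7.23 ± 0.60 in the spleen) and Ndufb2 (8.22 ± 0.25 in the liver, 6.20 ± 0.51 in the spleen). In complex III it belonged to Uqcr11, with a spread of 1.86 between the liver and the spleen, and Cyc1 (10.54 ± 0.13 in the liver, 9.04 ± 0.29 in the spleen). In complex V Atp5o spread by 1.98 between the brain and the spleen and Atp5e by 1.97 between the liver and the brain. Uqcrc2, a core protein of complex III, varied least, by 0.27.

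Isoforms of complex IV had the widest spreads of the 73 subunits. Cox8b, the heart and muscle form of Cox8 that brown fat also uses, averaged 9.19 ± 1.43 in the thymus and 5.52 ± 0.37 in the brain (SD, n = 8 each). It was not detected on any wild type array of the liver or spleen. Its mean in the thymus was therefore at least 13.6-fold that in the liver and at least 22.1-fold that in the spleen. These bounds, set by the dimmest detected probes, hold for means of 8 arrays and not for each mouse, and were not tested. The measured differences from 0 had limma adjusted p = 2.61e-14 and 1.23e-13. Cox6a2, the heart and muscle form of Cox6a, averaged 7.75 ± 0.34 in the brain, 6.33 ± 0.74 in the thymus and 6.23 ± 0.60 in the spleen. It was not detected in the liver and was at least 4.99-fold higher in the brain than there. Cox7a1, the third such form, averaged 7.69 ± 1.28 in the thymus, 6.48 ± 0.35 in the brain, 6.43 ± 0.32 in the liver and 4.70 ± 0.11 in the spleen, where 3 of 8 arrays detected it. The forms of most tissues had narrower ranges: Cox6a1 lay highest in the brain (12.00 ± 0.43) and Cox7a2 in the liver (8.29 ± 0.27). Cox8a averaged 12.81 ± 0.46 in the brain and 11.32 ± 0.68 in the spleen.

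**Figure D5:**
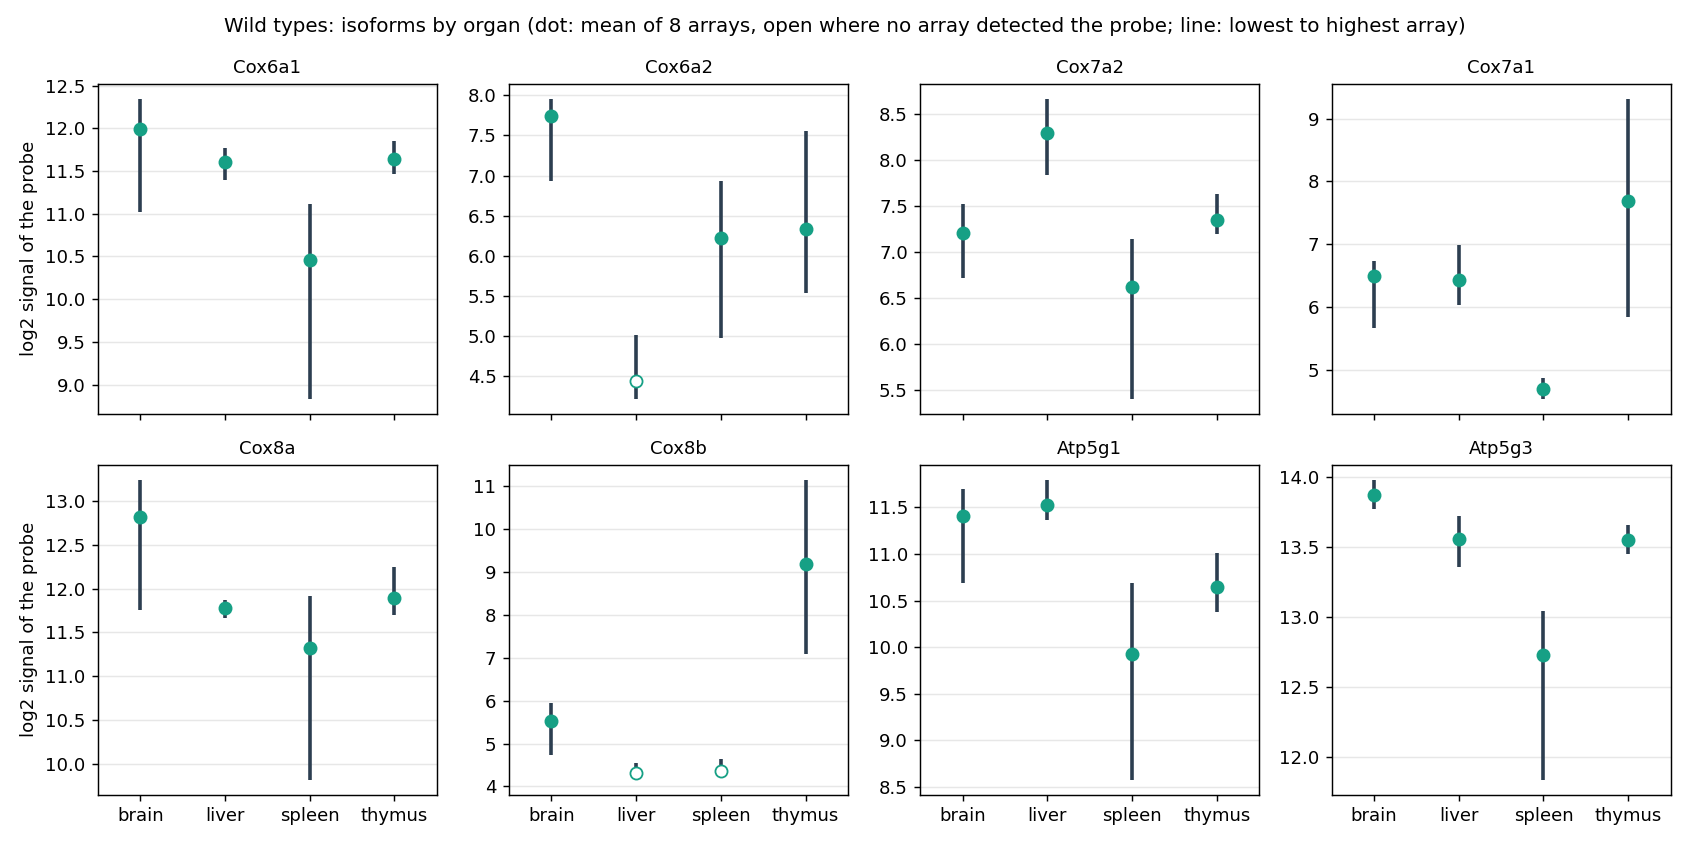
Log2 signal (y axis, a scale of its own for each probe) of 8 isoform genes in wild types by organ; dots are means of 8 arrays, open where no array detected the probe, and lines run from the lowest to the highest array. Cox8b and Cox7a1 are highest in the thymus (9.19 and 7.69) with wide ranges, and Cox6a2 is highest in the brain (7.75).

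The thymus levels of these 3 forms differed widely between mice, given here on the scale of the 64 arrays. Cox8b ran from 7.08 in C57BL/6J wild type replicate 3 to 11.14 in C57BL/6 wild type replicate 1, and Cox7a1 from 5.83 to 9.32 on the same arrays. Cidea and Ucp1, markers of brown adipose tissue, had their lowest values, 5.60 and 4.67, and their highest, 10.51 and 9.72, on these arrays too. Cox6a2 was highest in C57BL/6J wild type replicate 1, at 7.56, where the heart markers Nppa, Actc1 and Myl7 had 8.35, 7.64 and 7.07. These were picked from the muscle and heart list. Of its other detected markers, Mb, Myh6, Myl1 and Atp2a1 were also highest on that array. Mylpf, Tnni2 and Actn3 were not: they had 7.24, 6.37 and 6.29 there, against up to 7.53, 6.73 and 6.75 on other wild type arrays. Of 6 brown adipose probes 4 were detected on some wild type thymus array, with a mean over the list of 4.57 to 6.80, and of 21 muscle and heart probes 13, with a mean of 4.91 to 5.80. The part of such tissue in the thymus levels was not tested. On the scale of the thymus arrays alone, Cox8b had 9.74, 7.10, 10.41 and 10.32 in Hmgn2 KO thymus, against 11.11, 8.19, 7.96 and 10.43 in wild types (-0.03 ± 0.92), and the groups overlapped.

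The c-ring of the ATP synthase is encoded by the 3 genes Atp5g1, Atp5g2 and Atp5g3, whose mature proteins are alike. Atp5g1 averaged 11.53 ± 0.16 in the liver, 11.41 ± 0.33 in the brain, 10.65 ± 0.20 in the thymus and 9.93 ± 0.66 in the spleen (SD, n = 8 each). Atp5g3 was highest in the brain (13.87 ± 0.07) and lowest in the spleen (12.73 ± 0.38). Atp5g2 differed from both in its order: it was lowest in the brain (9.20 ± 0.29) and stood at 9.89 in the thymus and the liver. In the Hmgn2 KO thymus Atp5g1 (-0.47 ± 0.14) and Atp5g2 (-0.63 ± 0.11) fell, and Atp5g3 (-0.25 ± 0.09, limma adjusted p = 0.0782) did not pass.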

How the data were processed

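Per the labels' protocols, total RNA was labelled with biotin by a cRNA kit and put on Illumina arrays. GenomeStudio 2011.1 was used, per the submitters' processing notes. The deposited table held raw signal intensity per probe with a detection p-value, and a second deposited table held normalized intensity. Arrays give no depth in counts, and their number limits the precision. Slides were not given in the sources used here.

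Here neqc corrected and normalized the raw values of each organ's arrays, in limma 3.58.1 in R 4.3.3 with an offset of 16, and gave log2 values. Probes detected at p under 0.01 on at least 4 of 16 arrays were kept, with the brightest probe per gene. Limma's moderated test used 4 group means, with Benjamini-Hochberg adjustment over all genes at 0.05. Counts at an unadjusted p under 0.05 stand without the share of all genes, except for the DKO in thymus minus other organs. Organs were compared over 32 wild type arrays, and thymus with other organs over 64, with mouse as a random block (correlations of -0.0327 and 0.0210). Wild type arrays of 1 strain label serve each mutant, and the mutant difference uses both. Bounds use the dimmest detected probe per array. Symbols follow RefSeq GRCm38.p6, and 1719 of 25697 probes without a single gene were left out. Replicates are separate mice. In none of the 8 mutant comparisons did all 4 pairs of equal number correlate above 0.1. The script for calls was tested on simulated data. Changes by protein length, though planned, were not run, because no protein table was used here.

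Named members followed a rule: in each mutant comparison up to 4 smallest p-values per complex among those past the test, or the 3 smallest where fewer than 5 passed, and core subunits, isoforms, probes that disagree and the 2 widest organ spreads per complex. Members, gene lists, this rule and the contrast of the thymus with the other organs were chosen with earlier results of these data known. Alternatives changed the background correction, scaling, source of values, filter, probe choice, fit and libraries.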

Additional observations from a re-analysis of the deposited data

Results flagged for a closer look

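In the brain, the mean level of the 73 subunits stood apart on Hmgn2 KO replicate 1, at 9.47, and on C57BL/6 wild type replicate 2, at 9.55, each far below the other 3 arrays of its group. In the liver, Cox7a2 stood apart on C57BL/6J wild type replicate 2, at 7.17. Dixon's criterion at 95% marks about 5% of groups by chance. It was applied to the mean level in 16 groups, and the number of groups searched for single genes such as Cox7a2 is not given here.

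In the thymus, the DKO change minus the Hmgn2 KO change differed from 0 past the test, with 15 subunits higher. The differences were 0.93 for Ndufa3, 0.92 for Ndufa2, 0.72 for Ndufs5-ps, 0.69 for Ndufa7, 0.62 for Ndufa1, 0.71 for Ndufa5, 0.54 for Ndufb3, 0.61 for Ndufa6 and 0.64 for Ndufb7 of complex I. They were 0.67 for Cox6a1 and 0.69 for Cox7c of complex IV, and 0.76 for Atp5g2, 0.61 for Atp5j, 0.62 for Atp5o and 0.71 for Atp5l of complex V.

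The Hmgn2 KO change of the thymus differed from the mean change of the other organs at Ndufa2, Ndufs4 and Atp5o, by -1.04, -0.72 and -0.80.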

How the results depend on the processing

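Of the counts of subunits past the test, 189 values under alternatives other than leaving out 1 array lay within 1.5 times the main count and 13 did not. Most main counts were 0, and a count that stayed at 0 is among the 189. Of the values of named genes, 758 kept their direction and side of the threshold, 26 kept the direction only, 9 passed newly and 0 reversed. Many of the named genes lay far from the threshold. In the thymus of Hmgn2 KO mice the count was 44, 22 with only the 8 arrays compared, 36 with the replicate block, and 34 to 47 with 1 array left out. The DKO change minus the Hmgn2 KO change passed for 15 subunits, for 23 without background correction, for 0 with the replicate block, and for 3 to 24 with 1 array left out. Thymus minus the other organs in the Hmgn2 KO passed for 3, for 1 normalized within each organ, 12 with median scaling, 1 in the authors' normalized table, 0 with the replicate block and 0 to 8 with 1 array left out. It passed for 41 without 5 libraries, an alternative chosen after seeing the data. Between brain wild types (C57BL/6J against C57BL/6) the count was 0, 4 with median scaling, 1 with all 64 arrays together, 6 with array weights, 5 without the 2 low arrays (chosen after seeing the data) and 0 to 4 with 1 array left out. Between liver wild types it was 3, and 15 with array weights. Between spleen wild types it was 0, and 0 to 1 with 1 array left out. The cause of these shifts was not tested, and fits with arrays left out also have a smaller sample. Equal replicate numbers share only a number, and the block changed no other count of calls by over 1.5 times. Signal near background limits Atp5e, Cox6a2 and Cox8b in some organs.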
